A study of Arabidopsis thaliana with 34 samples.

Results

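The group VII ethylene response factors of Arabidopsis thaliana are the 5 transcription factors RAP2.2 (AT3G14230), RAP2.3 (AT3G16770), RAP2.12 (AT1G53910), HRE1 (AT1G72360) and HRE2 (AT2G47520). They were taken by gene identifier, with no use of measured values, and all 5 were listed among the 18480 genes measured in seedlings and the 21884 measured in rosettes. All 5 passed the minimum for testing in seedlings, a mean of at least 10 normalized reads over 12 libraries, and 4 passed it in rosettes. HRE2 had a mean of 12.6 in seedlings and passed only through the libraries labelled prt6-1, so its being tested is itself tied to that label.

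Group VII factors start with a methionine followed by a cysteine. Methionine aminopeptidases remove the methionine, plant cysteine oxidases (PCOs) oxidise the cysteine when oxygen is present, arginyl transferases (ATEs) add an arginine, and the ubiquitin ligase PRT6 marks the protein for breakdown. When oxygen is low, or when the pathway is broken, the factors persist and switch on genes of fermentation and low-oxygen survival. RAP2.2, RAP2.3 and RAP2.12 are known as constitutively transcribed members that start this response, whereas HRE1 and HRE2 are themselves genes that low oxygen induces. VRN2, a subunit of Polycomb repressive complex 2, which deposits the histone mark H3K27me3, starts with the same residues and is another substrate of the pathway.

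Whole seedlings gave 12 mRNA libraries, 3 each of the accession Col-0, the VRN2 mutant vrn2-5, the PRT6 mutant prt6-1 and the double mutant vrn2-5 prt6-1. Whole rosettes gave 4 mRNA libraries, 2 of the PIF4 mutant pif4-2 and 2 of vrn2-5 pif4-2, so both rosette groups lack PIF4 function by label and no rosettes with PIF4 were analysed here. Chromatin came from whole seedlings as well. VRN2-YFP, driven by the VRN2 promoter in vrn2-5 plants, was precipitated in 3 replicates, and H3K27me3 was compared between Col-0 and vrn2-5 in 3 replicates. The sources used here give no age, light or temperature. Nothing in them states that replicates were separate plantings, and p-values therefore measure the spread between these libraries, which may be technical. No treatment with low oxygen is named in the labels.

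Seedling libraries held 1208836 to 27853214 reads in genes. The 6 deep ones held at least 9232780 and the 6 shallow ones at most 1786079. Each genotype had both kinds, but not in equal parts. Col-0 and vrn2-5 each had 1 deep and 2 shallow libraries, and prt6-1 and the double mutant each had 2 deep and 1 shallow. Rosette libraries held 15912781 to 26322823. Seedling levels are the authors' reads divided by a size factor per library, called normalized reads here, and 1 read was worth between 0.205 and 5.00 normalized reads. The replicate 3 libraries of the 4 seedling genotypes deviated from their group means together, with a correlation of 0.288 to 0.56 across genes for the 6 pairs. VRN2 itself read 116 to 163 normalized reads in Col-0 and 45.0 to 50.3 in vrn2-5, and 118 to 135 in prt6-1 against 36.7 to 76.8 in vrn2-5 prt6-1. PRT6 did not go down with its label: Col-0 read 0 to 57.7 and vrn2-5 0 to 43.6, while prt6-1 read 49.6 to 142 and vrn2-5 prt6-1 59.6 to 122. The table does not say which stretch of the gene those reads came from, so these groups are called libraries labelled prt6-1. Markers of green leaf were high in both tissues, and the sums of 5 root markers spanned 11079 to 26160 normalized reads in seedlings with overlap between all 4 genotypes. Nearly all of that sum came from PYK10, at 10871 to 25843, so it describes 1 gene and does not show equal root content. The sums of 5 green leaf markers were 325173 to 562283 in Col-0 and 420366 to 475224 in vrn2-5, against 291823 to 415823 for libraries of prt6-1 and 225947 to 427843 for the double mutant. They thus reached lower with the prt6-1 label, but Col-0 overlapped prt6-1 and vrn2-5 overlapped the double mutant. Only vrn2-5 and prt6-1, which are not compared with each other here, did not overlap. In rosettes 4 root markers summed to 83.6 to 170 CPM (counts scaled to a common library size), nearly all of it from PYK10, at 82.8 to 170.

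Levels were first set side by side per kilobase of the transcript lengths in the deposited table, which were 1832 bp for RAP2.2, 1306 bp for RAP2.3, 1907 bp for RAP2.12, 1273 bp for HRE1 and 843 bp for HRE2. All 12 seedling libraries gave 1 order, with RAP2.3 first, then RAP2.2, RAP2.12, HRE1 and HRE2. RAP2.3 lay between 1159 and 3509 normalized reads per kb, and no library of it overlapped the range of RAP2.2, 487 to 883 per kb. RAP2.12 lay between 291 and 555 per kb and overlapped RAP2.2 across libraries, although within every library RAP2.2 was 1.21 to 1.73 times as high. HRE1 lay between 25 and 81.8 per kb and HRE2 between 0 and 37.9 per kb, so these neighbours overlapped too. The 3 RAP genes were thus the abundant transcripts of the family in seedlings and the HRE genes the scarce ones.

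**Figure D1:**
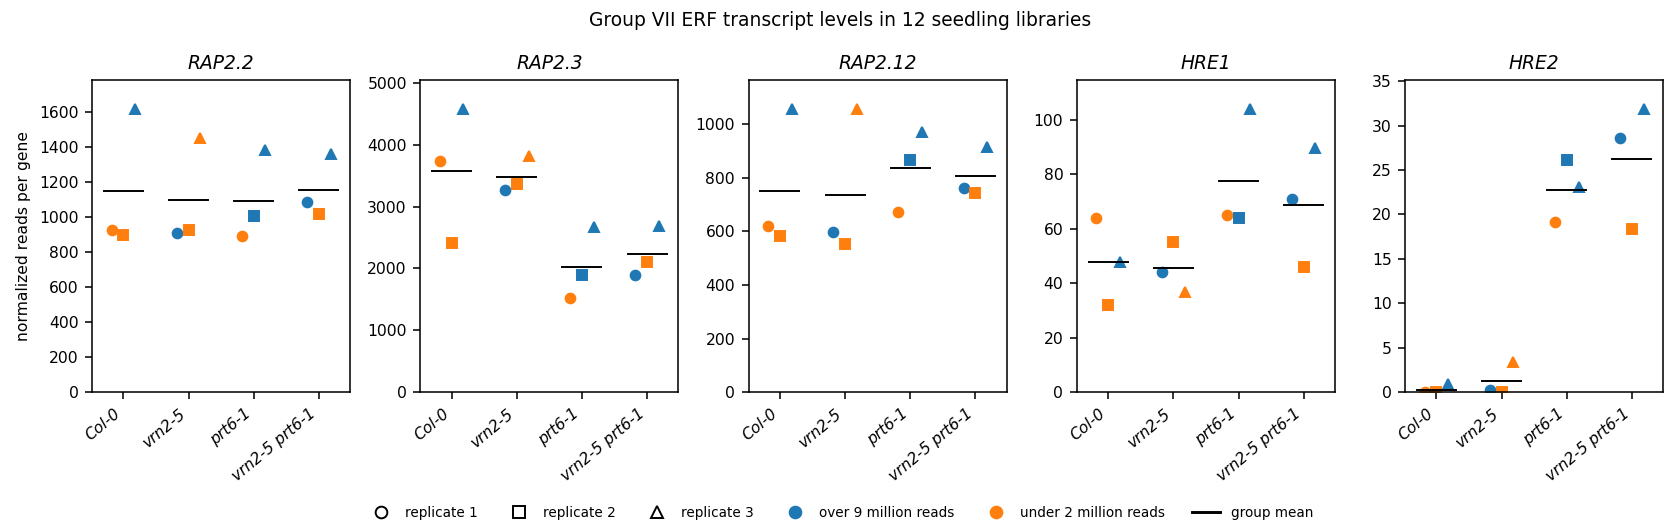
Normalized reads per gene (linear axes from 0, a scale of its own for each gene) of the 5 group VII genes in 12 seedling libraries by genotype; points are libraries, shapes replicates, colours read depth and lines group means. HRE2 is at or near 0 without the prt6-1 label and between 18.3 and 31.9 with it. RAP2.3 has lower group means with the label, but its libraries overlap, at 1514 to 2691 with it and 2411 to 4583 without it. RAP2.2 and RAP2.12 are highest in replicate 3 of each genotype.

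HRE2, the member on which the genotypes differed most, lies on chromosome 2 at 19502776 to 19503702 of TAIR10, on the minus strand. It was nearly silent in Col-0, with 0, 0 and 0.866 normalized reads in replicates 1 to 3, which stand for 0, 0 and 3 reads. In vrn2-5 it had 0.266, 0 and 3.35 normalized reads, from 1, 0 and 1 read. In prt6-1 it had 19.1, 26.1 and 23.1 normalized reads, from 5, 127 and 38 reads. In vrn2-5 prt6-1 it had 28.6, 18.3 and 31.9, from 129, 4 and 118 reads. All 6 libraries labelled prt6-1 were above all 6 others. Of the 16820 genes tested, 1.25% were apart in either direction, and nothing is read from that share, since HRE2 was tested only through the libraries where it is high. The libraries without a read were shallow: at 3 reads, the limit that a count of 0 allows, they would have reached 11.2 and 10.6 in Col-0 replicates 1 and 2 and 15 in vrn2-5 replicate 2, still under the lowest prt6-1 library. These limits cover counting error only.

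On the log2(normalized reads + 5) scale, which understates the change of a gene this low, HRE2 rose by 2.39 (SE 0.38, n = 3 against 3) from Col-0 to prt6-1, with an adjusted p of 0.0343 in limma. It rose by 2.35 (SE 0.38, n = 3 against 3) from vrn2-5 to vrn2-5 prt6-1, with an adjusted p of 0.0351, or 0.0676 with replicate number as a block. The mean of both differences was 2.37 (SE 0.27), with an adjusted p of 0.00153. In limma without a block, HRE2 was the 1 of 5 genes past the threshold in these comparisons, against 0.184%, 0.208% and 0.375% of all genes tested. Nothing is read from this count because of how HRE2 passed the minimum. With replicate number as a block HRE2 missed the threshold in both single comparisons (adjusted p 0.0731 and 0.0676 in limma). Summed over libraries, 170 reads in prt6-1 stood against 3 in Col-0, a ratio of 33.6 after division by depth (95% counting interval 11.3 to 164), and 251 in vrn2-5 prt6-1 stood against 2 in vrn2-5, a ratio of 63.3 (17.4 to 526). These ratios rest mostly on the deep libraries, and their intervals leave out the spread between libraries. The call in each single comparison was lost with a pseudocount of 1 (adjusted p 0.178 and 0.235) and with a depth class in the fit (0.0608 and 0.0638). It was kept in both without the minimum for testing (0.00864 and 0.00801 in limma). The call was also kept in both in edgeR (0.0236 and 0.0188) and in DESeq2 (0.00335 and 0.000856). In prt6-1 against Col-0 it was lost in each of the 6 fits without 1 library, at adjusted p from 0.0667 to 0.286. In vrn2-5 prt6-1 against vrn2-5 it was kept without vrn2-5 replicate 3 (adjusted p 0.0333) and lost in the other fits, at up to 0.284. For the mean of both differences the adjusted p ran from 0.00199 to 0.0134 over the 12 fits without 1 library and from 3.21e-08 to 0.0132 over the other settings, for a gene whose being tested is tied to the label. The size depended on the scale: the differences were 4.26 and 3.91 with a pseudocount of 1, 4.96 and 5.44 in edgeR, and 4.89 and 5.23 in DESeq2. Within the deep libraries alone (2 against 1) the differences were 2.33 and 2.74, and within the shallow ones (1 against 2) 2.27 and 1.85.

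RAP2.3, also named EBP, an activator of low-oxygen genes and the most abundant member, lies on chromosome 3 at 5705541 to 5707084 on the plus strand. It had 3738, 2411 and 4583 normalized reads in Col-0 and 3267, 3358 and 3818 in vrn2-5. It had 1514, 1887 and 2666 in prt6-1 and 1901, 2104 and 2691 in vrn2-5 prt6-1. The groups with the prt6-1 label had the lower means, 2022 ± 588 and 2232 ± 410 (SD, n = 3) against 3577 ± 1090 and 3481 ± 295. The double mutant did not overlap vrn2-5, as was the case for 11.0% of genes tested, while Col-0 replicate 2 fell within the range of prt6-1, so that RAP2.3 was not among the 9.55% of genes whose prt6-1 and Col-0 libraries were apart. HRE2 was the only member apart in both comparisons.

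The log2 difference of RAP2.3 was -0.81 (SE 0.26) for prt6-1 against Col-0 and -0.65 (SE 0.26) for vrn2-5 prt6-1 against vrn2-5, with adjusted p of 0.976 and 0.759 in limma. The mean of both was -0.73 (SE 0.18, 95% interval -1.14 to -0.33), with an adjusted p of 0.209 over all genes, so RAP2.3 did not pass the threshold. The tools were split on this value: DESeq2 on the recovered reads gave an adjusted p of 0.0187 and limma with replicate number as a block 0.0337, while edgeR gave 0.233. RAP2.3 was lower with the prt6-1 label in 6 of 6 pairs of same-numbered libraries. The numbers do not pair Col-0 with prt6-1, however, and Col-0 replicate 2, at 2411, lay below prt6-1 replicate 3, at 2666. The share of all genes with 6 of 6 is not given here, so nothing is read from this count. The part of the green leaf markers, which reached lower with the label but overlapped in both comparisons, in this difference was not tested. The direction held in all 12 fits without 1 library, between -0.86 and -0.63. It was also the same in deep libraries (2 against 1) and shallow ones (1 against 2), at -1.03 and -0.98 for prt6-1 against Col-0. For the double mutant against vrn2-5 these splits gave -0.53 and -0.77. In replicate 3 alone, with 1 library a group, the differences were -0.78 and -0.50. The 1 deep Col-0 library is replicate 3, so depth and replicate number are mixed there, and no test was made on these splits.

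RAP2.2, an activator that takes part in the low-oxygen response and in ethylene signalling, lies on chromosome 3 at 4737120 to 4739298 on the minus strand. It had 922, 896 and 1617 normalized reads in Col-0 and 908, 924 and 1451 in vrn2-5. The prt6-1 libraries had 892, 1006 and 1380, and those of vrn2-5 prt6-1 had 1087, 1018 and 1358. The 4 replicate 3 libraries, at 1358 to 1617, lay above the other 8, at 892 to 1087, whatever the genotype, and the genotypes overlapped. The mean prt6-1 difference was 0.03 on the log2 scale (SE 0.19, 95% interval -0.39 to 0.45), with an adjusted p of 0.975 in limma.

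RAP2.12, known to be held at the plasma membrane by the acyl-CoA-binding proteins ACBP1 and ACBP2 while oxygen is present, lies on chromosome 1 at 20134844 to 20137013 on the plus strand. It had 619, 584 and 1056 normalized reads in Col-0 and 597, 555 and 1059 in vrn2-5. It had 671, 866 and 973 in prt6-1 and 763, 743 and 916 in vrn2-5 prt6-1. Replicate 3 was again the highest of each genotype, at 916 to 1059 against 555 to 866 in the other 8 libraries. The mean prt6-1 difference was 0.19 (SE 0.20, 95% interval -0.25 to 0.62), with an adjusted p of 0.83 in limma, and ran from 0.101 without vrn2-5 replicate 2 to 0.333 without vrn2-5 replicate 3. Within replicates 1 and 2 the differences were 0.34 and 0.39 for the 2 comparisons, and within replicate 3, with 1 library a group, they were -0.12 and -0.21, so their sign went with the replicate number.

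HRE1, also named ERF73, lies on chromosome 1 at 27241696 to 27242968 on the plus strand. It had 63.7, 31.9 and 47.6 normalized reads in Col-0 and 44.2, 55.0 and 36.9 in vrn2-5. It had 64.8, 63.7 and 104 in prt6-1 and 70.7, 45.8 and 89.5 in vrn2-5 prt6-1. The libraries labelled prt6-1 reached higher, to 104 against 63.7, but the ranges overlapped, and the shallow libraries rested on 9 to 17 reads each. The mean prt6-1 difference was 0.59 (SE 0.23, 95% interval 0.09 to 1.08), with an adjusted p of 0.493 in limma, and the differences were 1.05 and 1.18 within replicate 3 and 0.46 and 0.19 within replicates 1 and 2. HRE1 thus differed from HRE2 in having reads in every library: both are known as low-oxygen-induced genes, and HRE2 alone of the family was near 0 without the prt6-1 label.

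**Figure D2:**
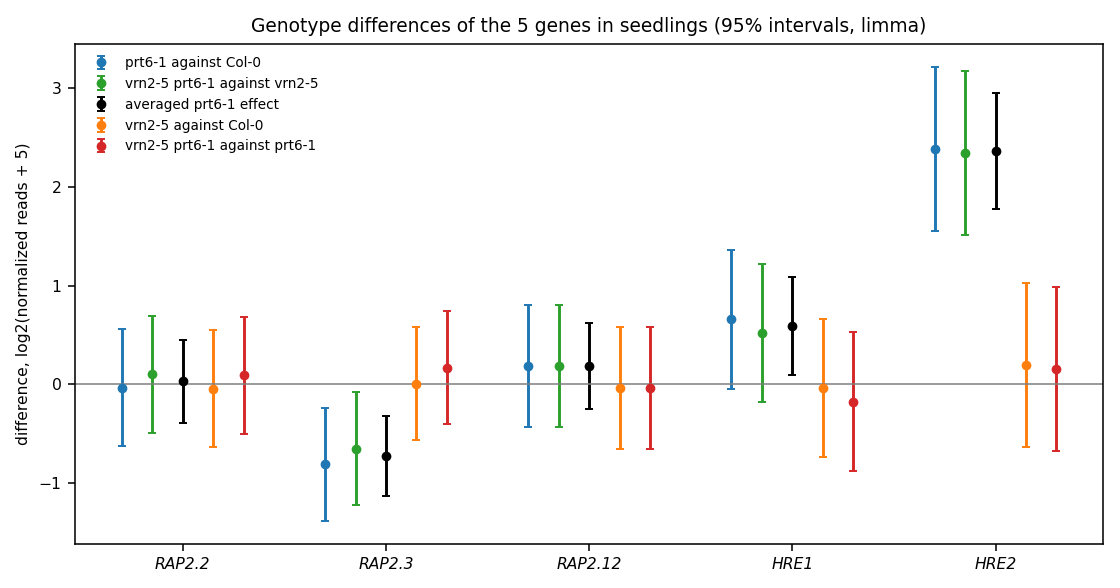
Genotype differences of the 5 genes in seedlings on the log2(normalized reads + 5) scale, with 95% intervals from limma, by comparison (colours). Intervals for HRE2, which was tested only through the libraries labelled prt6-1, lie far above 0 in the 3 comparisons with that label, at 2.35 to 2.39. Those for RAP2.3 lie below 0, and those of the vrn2-5 comparisons all include 0. The intervals are not adjusted for the number of genes, and RAP2.3 did not pass the adjusted threshold in these fits.

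The vrn2-5 comparisons, which ask what loss of VRN2 does, gave no call on any of the 5 genes. For vrn2-5 against Col-0 the log2 differences were -0.04 for RAP2.2, 0.01 for RAP2.3, -0.04 for RAP2.12, -0.04 for HRE1 and 0.20 for HRE2. For vrn2-5 prt6-1 against prt6-1 they were 0.09, 0.17, -0.04, -0.18 and 0.15 in the same order. Adjusted p was 1.0 for all of them in limma, and 0 of 5 genes were called against 0.0238% and 0.0% of the genes tested. The libraries overlapped for all 5 genes in both comparisons, whereas 5.5% and 6.06% of the genes tested were apart. The second comparison had no call over all genes in limma, with 191 genes at an unadjusted p under 0.05, and edgeR and DESeq2 called none of the 5 genes either. The intervals were wide for HRE2, from -0.64 to 1.03 and from -0.68 to 0.98. In vrn2-5 against Col-0 both groups were near 0, at 0 to 3.35 and 0 to 0.866 normalized reads. A fall could hardly show there, and this scale understates a rise, so the first interval sets no limit on a fold change. The difference between the prt6-1 effects with and without VRN2 was between -0.14 and 0.16 for the 5 genes, and 0 of 5 passed the threshold against 0.00595% of genes. For HRE2 that difference was -0.04 (SE 0.53, 95% interval -1.22 to 1.13).

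The proportions within the family also went with the prt6-1 label. RAP2.3 stood at 8.82, 6.03 and 6.34 times RAP2.12 per kb in Col-0 and at 7.99, 8.84 and 5.26 times in vrn2-5. It stood at 3.29, 3.18 and 4.0 times in prt6-1 and at 3.64, 4.14 and 4.29 times in vrn2-5 prt6-1. The 6 libraries labelled prt6-1, at 3.18 to 4.29, thus did not overlap the other 6, at 5.26 to 8.84. A ratio within a library does not depend on the size factor, but it was chosen with the levels known and is given as a description with no test. In levels, neither RAP2.3 nor RAP2.12 alone was apart by label. How often other pairs of genes are apart in this way is not given here, so nothing is read from the lack of overlap. RAP2.3 made up 72.1% ± 3.92 (SD, n = 3) of the summed level per kb of the family in Col-0 and 72.7% ± 4.15 in vrn2-5, against 57.6% ± 1.97 in prt6-1 and 59.9% ± 2.28 in vrn2-5 prt6-1. The shares of RAP2.2, RAP2.12 and HRE1 were each higher in all 6 libraries labelled prt6-1, at 21.3% to 23.5%, 14.2% to 18% and 1.38% to 2.46%, than in the others, at 13.5% to 18.4%, 8.53% to 12.9% and 0.673% to 1.34%. For HRE1 the gap lay between 1.38% in vrn2-5 prt6-1 replicate 2, from 10 reads, and 1.34% in Col-0 replicate 1, from 17 reads. So few reads cannot tell these shares apart. Shares add up to a whole, so a lower share of 1 gene raises the others, and nothing is read from their lack of overlap.

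**Figure D3:**
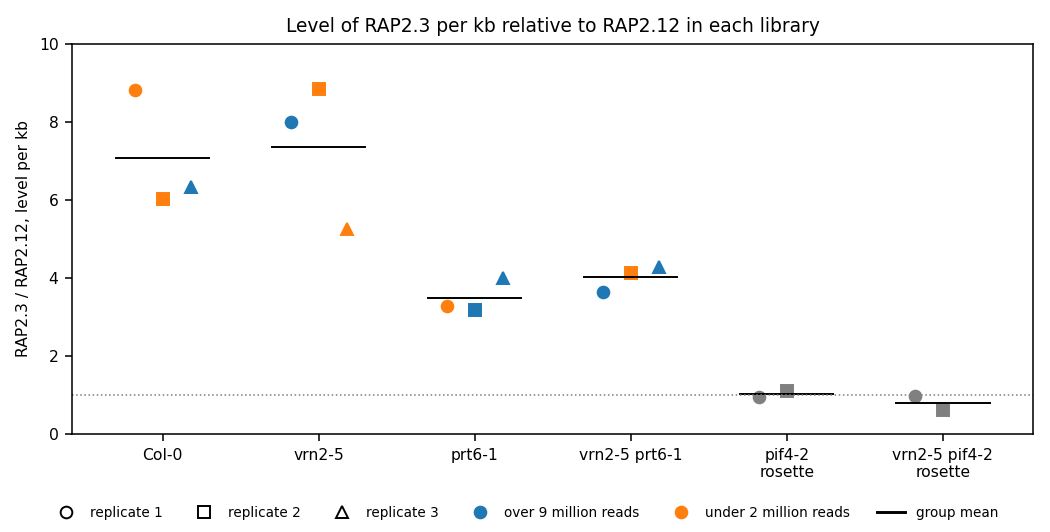
Level of RAP2.3 per kb divided by that of RAP2.12 in each library, by genotype; colours mark read depth in seedlings, grey points are rosettes, the dotted line is a ratio of 1. Seedling libraries labelled prt6-1 sit at 3.18 to 4.29, the other seedling libraries at 5.26 to 8.84 and rosettes at 0.619 to 1.1.

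The other genes of the pathway were taken from lists of known components. Of the 13 enzymes that act on the cysteine end, all 13 were tested, and 2 rose in each of the 2 comparisons of prt6-1 labels while none fell, beside 0.184% and 0.208% of all genes called. These were PCO1, at 21.5 ± 9.08 normalized reads in Col-0 and 959 ± 134 in prt6-1 (SD, n = 3), and PCO2, at 12.4 ± 2.54 and 637 ± 250. Their mean log2 differences were 5.01 and 5.08. Both are cysteine oxidases whose genes low oxygen is known to induce. PCO3, PCO4 and PCO5 had mean differences of -0.13, 0.05 and -0.01 and did not pass the threshold. The median of the 13 was 0.13, beside 0.01 over all genes. Of the 10 partners and other substrates, 9 were tested and 1 passed in the mean difference, beside 0.375% of all genes called. The 1 gene was HRA1, a trihelix factor known to restrain RAP2.12, at 2.87 (SE 0.41, adjusted p 0.0112 in limma). Its levels were 23.2 ± 13.4 in Col-0 and 20.9 ± 15.9 in vrn2-5, against 179 ± 81.4 in prt6-1 and 177 ± 66.4 in vrn2-5 prt6-1 (SD, n = 3), and it did not pass in either single comparison. ACBP1 and ACBP2, at -0.16 and 0.62, and VRN2, at 0.05, did not pass the threshold. ZPR2, a small leucine zipper protein and another substrate, was not in the seedling table and had 6, 2, 21 and 0 reads in the rosette libraries. The median of the 9 was 0.04.

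Of 49 core low-oxygen genes, a list without the 5 members that shares HRA1, PCO1 and PCO2 with the lists above, 46 were tested. In prt6-1 against Col-0, 19 rose, none fell and the median log2 difference was 2.11, beside 0.184% of all genes called and a median of 0.005. In vrn2-5 prt6-1 against vrn2-5, 18 rose, none fell and the median was 1.97, beside 0.208% and 0.012. FTM1, also known as a stearoyl-ACP desaturase gene, had differences of 6.16 and 6.50, HB1, which codes for a haemoglobin, 5.07 and 5.90, AT3G03270 5.34 and 5.74, and PCO1 5.23 and 4.79. In the vrn2-5 comparisons and the interaction none of the 46 passed, with medians of -0.05, 0.02 and 0.11.

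Likeness of pattern was measured as Pearson's r of log2(normalized reads + 5) over the 12 seedling libraries, which share genotype labels, replicate numbers and 2 depth classes, so it is a description only. The genes most like HRE2 were AT2G17850 at 0.987, ADH1 at 0.985 and HB1 at 0.985, and all 3 are on the low-oxygen list. HRE2 is near 0 without the prt6-1 label, so these values follow the contrast between labels. Any gene raised strongly with the label would rank high, and nothing is read from the 3 being on the list. ADH1, alcohol dehydrogenase of fermentation, averaged 923 normalized reads with the prt6-1 label and 28.8 without it. RAP2.3 was most like PSY1 at 0.957, MC1 at 0.951 and AT4G15260 at 0.936, which like RAP2.3 averaged lower with the label (PSY1 191 against 248, MC1 145 against 179, AT4G15260 149 against 214). RAP2.2 was most like AT3G21320 at 0.98, AZI1 at 0.977 and CLV1 at 0.972, all higher in replicate 3 than in replicates 1 and 2 (AZI1 3020 against 715, CLV1 896 against 317, AT3G21320 57.8 against 2.64). RAP2.12 was most like EIN3, an activator of ethylene responses, at 0.967, AT5G24430 at 0.959 and PDC2, a pyruvate decarboxylase, at 0.958, which were higher in replicate 3 as well. HRE1 was most like AT4G34881 at 0.873, AT4G19950 at 0.86 and AT5G18200 at 0.856. Within the family, RAP2.2 and RAP2.12 had the highest value over all 12 libraries, 0.923. Over the 8 libraries of replicates 1 and 2 they had 0.764, under RAP2.12 and HRE2 at 0.906, so that order rests on replicate 3. RAP2.3 and HRE2 gave -0.71 over 12 libraries but 0.423 and 0.45 within the 6 libraries without and with the prt6-1 label, so that value rests on the contrast between labels.

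In rosettes the family had another order. Levels there are CPM after TMM scaling and are not on the scale of seedlings. RAP2.3 was 0.619 to 1.1 times RAP2.12 per kb in the 4 rosette libraries, against 3.18 to 8.84 in seedlings, and the 3 RAP genes came in a different order in each of the 4 libraries, within 19.2 to 42.4 CPM per kb. HRE1 lay at 0.91 to 2.3 per kb and HRE2 at 0 to 0.156. Tissue, genotype and table cannot be told apart in this contrast, since both rosette groups carry pif4-2 and no seedling group does.

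RAP2.3 had 52.9 and 48.3 CPM in pif4-2 rosettes and 36.1 and 25.1 in vrn2-5 pif4-2. RAP2.2 had 66.5 and 55.5 against 60.7 and 51.6, and RAP2.12 had 80.9 and 64.2 against 53.8 and 59.2. HRE1 had 1.45 and 1.16 against 2.93 and 2.54, from 33 and 28 against 51 and 61 reads. HRE2 had 3 reads in pif4-2 replicate 1 and none in the other 3 libraries, where 3 reads would be 0.124 to 0.173 CPM, and it was not tested. RAP2.3 and RAP2.12 were lower and HRE1 higher in both vrn2-5 pif4-2 libraries without overlap, which was so for 36.2% of the 18561 genes tested, and RAP2.2 overlapped.

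None of the 4 genes passed the threshold in rosettes with edgeR, as was true of all genes (0.0% called, 441 at an unadjusted p under 0.05). DESeq2 called 7 genes, none of them members. The log2 difference was -0.71 (SE 0.29, adjusted p 0.945) for RAP2.3, -0.35 (SE 0.26) for RAP2.12, -0.11 (SE 0.26) for RAP2.2 and 1.08 (SE 0.76) for HRE1. In the authors' deposited table RAP2.3 has -0.711 with an adjusted p of 0.987 and HRE1 1.084 with the same adjusted p. The vrn2-5 pif4-2 libraries stood apart from each other: their counts differed by a chi-square of 162.63 per degree of freedom, against 15.09 for the pif4-2 pair. Without vrn2-5 pif4-2 replicate 1 the difference of RAP2.3 was -1.01 (adjusted p 1.2e-06 in edgeR), and without replicate 2 it was -0.48 (adjusted p 0.0866), with the lone library assumed to vary like the pif4-2 pair. The number of genes called then went from 0 to 11464 and 1825, so these calls rest on which library stays. PIF4 itself read 63.2 and 53.0 CPM in pif4-2 and 55.2 and 22.5 in vrn2-5 pif4-2, with no group with PIF4 to compare, and VRN2 read 18.3 and 18.6 against 6.39 and 6.17.

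**Figure D4:**
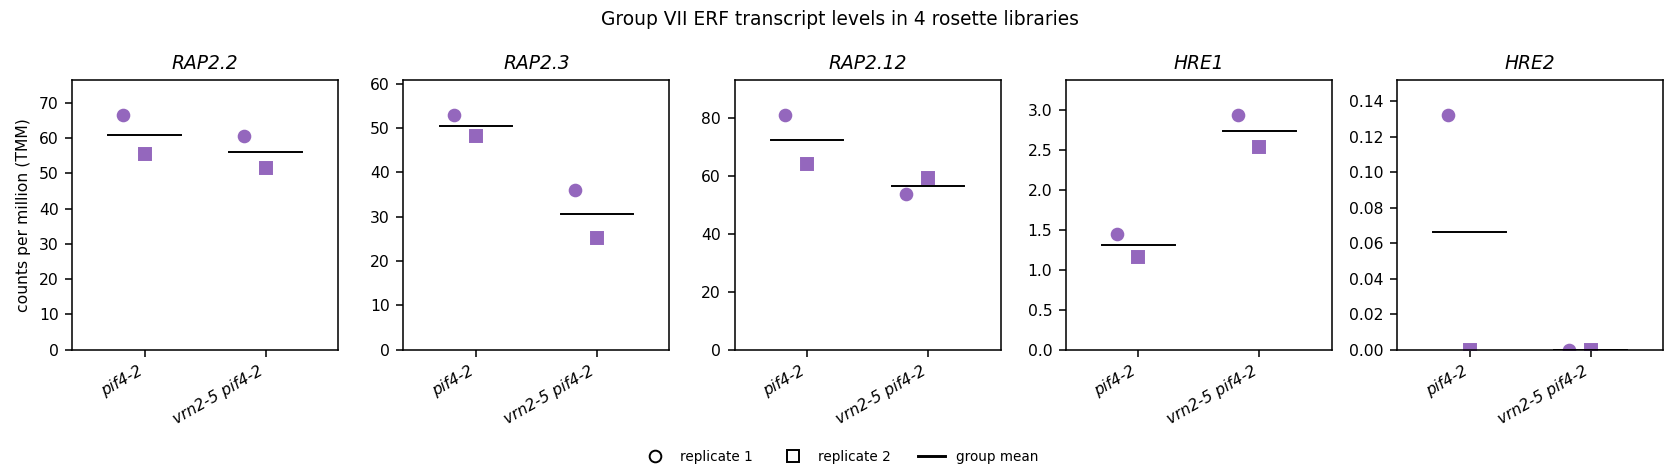
CPM after TMM scaling (linear axes from 0, a scale of its own for each gene) of the 5 genes in 4 rosette libraries; points are libraries, shapes replicates and lines group means. RAP2.3 is lower in both vrn2-5 pif4-2 libraries, at 36.1 and 25.1 against 52.9 and 48.3, and HRE2 is at 0 in 3 of 4 libraries.

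Chromatin at the 5 genes was read from the authors' lists, with folds and q-values as their peak caller gave them per replicate. A VRN2-YFP peak in at least 2 of 3 lists within the gene or 1 kb upstream was found at 0 of 5 members, against 4.45% of the 21713 nuclear genes with coordinates. With 5 kb upstream it was found at 1 member, HRE2, against 10.7% of genes. The HRE2 peaks spanned 19505761 to 19506422, 19505720 to 19506450 and 19505124 to 19506705 on chromosome 2 in lists 1 to 3, or 2.06 to 2.72, 2.02 to 2.75 and 1.42 to 3.00 kb upstream of the start site. Their folds over background were 2.1, 2.1 and 1.8, with a -log10 q of 7.02, 6.63 and 3.41. All 3 lie beyond the neighbour AT2G47530, which lies on the other strand with its near end at -0.47 kb from the HRE2 start site, negative being upstream, and before AT2G47550. In the RefSeq gene order of TAIR10.1 a further gene, AT2G47540, stands between those neighbours, so the peaks cannot be assigned to HRE2 by position. The nearest peaks to RAP2.2, RAP2.3, RAP2.12 and HRE1 were 7.03 to 28.6, 21.0 to 23.4, 8.47 to 85.7 and 25.2 to 33.6 kb away.

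An H3K27me3 region in at least 2 of 3 tables touched 1 of 5 members, HRE2, with the gene body or 1 kb upstream, against 28.2% of genes. The regions ran from 19503600 to 19512599, 19512199 and 19512399 in the 3 tables. They covered the first 103 bp of HRE2 at its 5′ end and 8.5 to 8.9 kb upstream of it, with AT2G47530, AT2G47550 and at least a piece of AT2G47560 in all 3 tables. The VRN2-YFP peaks lay inside these regions. HRE2 was thus the member with the mark at its start, and also the one near 0 in Col-0; with 1 such gene of 5 nothing is tested. The authors' ratio of library A over B in those regions was 1.05, 1.03 and 1.04, with a false discovery rate for A over B of 0.00337, 0.122 and 0.164. The file headers do not name A and B, so no genotype is given as the higher. A false discovery rate of at most 0.05, in 2 or more tables and with the same sign, was found at 0 of 5 members, against 12.4% of genes. Only a gene with a region can show such a change, and HRE2 was the 1 member with a region, so nothing is read from this count. H3K27me3 in prt6-1 was not analysed here, so whether the mark at HRE2 differs there was not tested. The other 4 genes held no region within 1 kb, and the nearest lay 5.32 to 5.52 kb from RAP2.2, 20.9 to 21.5 kb from RAP2.3, 1.99 to 6.79 kb from RAP2.12 and 24.5 to 24.7 kb from HRE1.

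**Figure D5:**
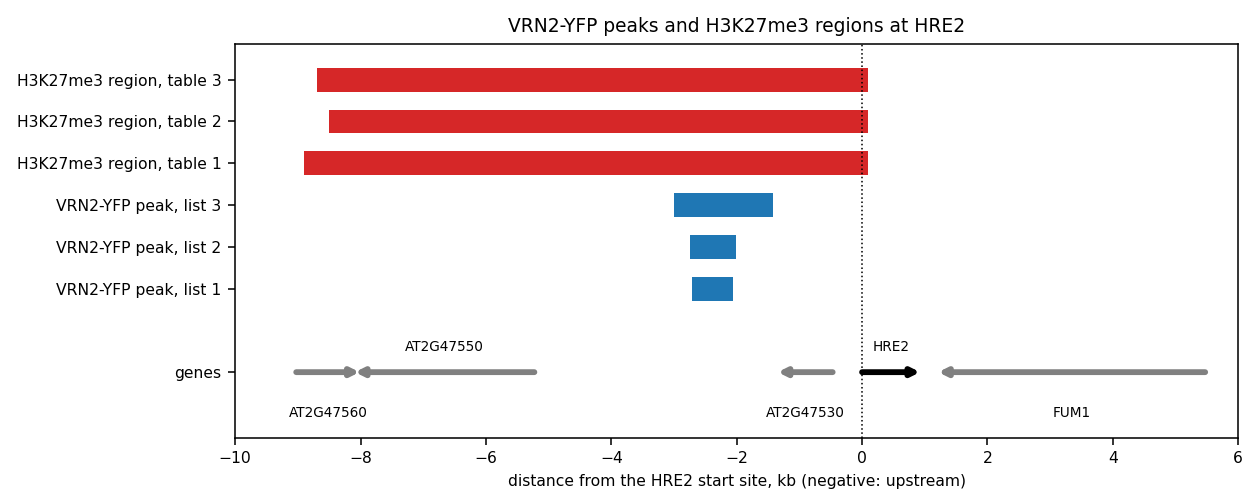
Genes with deposited coordinates (arrows point in the direction of transcription), VRN2-YFP peaks in the 3 lists (blue) and H3K27me3 regions in the 3 tables (red) by distance from the HRE2 start site in kb, with negative values upstream. The peaks lie 1.42 to 3.00 kb upstream, inside regions that reach 8.5 to 8.9 kb upstream and end just within HRE2.

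Sequencing was of whole seedlings and rosettes, so fewer cells of a type and less RNA per cell cannot be told apart in any of these levels, and transcript levels say nothing of the level of the proteins, on which the N-degron pathway acts.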

How the data were processed

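The submitters' processing notes name TAIR10 as the build, Bowtie and DESeq2 for RNA and BWA for chromatin; MACS2 and MACS3 are named for VRN2-YFP replicates 1 and 2, no caller for replicate 3, and SICER for H3K27me3. For seedlings the deposited values are a signal, namely reads divided by 1 size factor per library; 100% of values came out as whole reads at a tolerance of 0.01. For rosettes the authors gave raw counts per gene beside their log2 fold change and p-values. The deposited peak lists give a fold (a ratio over background) and a -log10 q-value per peak, and the deposited region tables a ratio of 2 libraries and false discovery rates as p-values. Gene coordinates and lengths are the authors'.

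Seedlings were tested with limma 3.58.1 (intensity-dependent prior, log2(value + 5), genes with a mean of at least 10, 16820 of 18480, all 12 libraries, genotype means). Rosettes were tested with edgeR 4.0.16 (quasi-likelihood, TMM, filterByExpr, 18561 of 21884 genes), with standard errors derived from the F statistic. P-values were adjusted by Benjamini-Hochberg over all genes tested, with calls at 0.05. DESeq2 1.42.0 and edgeR on the recovered reads, a pseudocount of 1, no filter, replicate number as a block and leaving out each library were alternatives; a depth class in the fit, subsets by depth and replicate, and 5 kb windows were added after seeing the data. Deviations from the group means correlated at 0.26, 0.179 and 0.288 for same-numbered vrn2-5 and vrn2-5 prt6-1 libraries, all over 0.1, so the numbers were taken to pair them; this was not so for every pair of the other comparisons. No 2 libraries of a group agreed within counting noise. Tests were checked on simulated data.

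Members, gene lists and tests were chosen with earlier results of these data known. Named genes were the 5 members, the 3 genes most like each of them, the genes the genotypes are named for, fixed partners (HRA1, ACBP1, ACBP2, VRN2, ZPR2), and up to 4 genes per list with the largest differences past the threshold in both prt6-1 comparisons; PCO3 to PCO5, BIG and the neighbours of HRE2 were named after their values were seen. Of 5 members, all have symbols, coordinates and lengths in the files; sequences were not used here. Depth limits precision most in the 6 shallow seedling libraries, where 1 read is worth over 3 normalized reads.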

Additional observations from a re-analysis of the deposited data

How the results depend on the processing

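Over the 5 genes, 374 alternative values kept their direction and side of the threshold, 54 changed sign, 17 lost a call and 3 gained one. With DESeq2 the number of genes called was 55 for prt6-1 against Col-0 (28 higher and 3 lower in limma), 64 for vrn2-5 prt6-1 against vrn2-5 (33 and 2), 165 for the mean of both (52 and 11), 11 for vrn2-5 against Col-0 (2 and 2), 6 for the interaction (1 and 0) and 7 for rosettes (0 in edgeR); edgeR called 0 for the seedling interaction. A VRN2-YFP peak was at 1 of 5 genes with 5 kb upstream. Outside vrn2-5 prt6-1 against vrn2-5, same-numbered libraries did not all deviate together (correlation -0.216 to 0.56 in seedlings, 0.0568 in rosettes), so the numbers do not pair them there; with the replicate block 137 genes were called for the mean prt6-1 difference and 3 in rosettes, RAP2.3 passed for the mean difference (adjusted p 0.0337) and HRE2 missed in the single comparisons (0.0731 and 0.0676). Signs changed where the main difference was small, though the changed values were not all near 0. RAP2.2 in the mean prt6-1 difference was -0.062 with a depth class. For vrn2-5 against Col-0, edgeR and DESeq2 gave -0.049 and -0.044 for RAP2.3. For HRE2 they gave -0.251 and -0.124 there, against 0.195 in limma. For the HRE2 interaction they gave 0.482 and 0.345, against -0.042 in limma, whose scale understates changes of HRE2. Without 1 library, the number called ran from 21 to 51 for prt6-1 against Col-0 (51 without Col-0 replicate 3), 39 to 82 for the mean (39 without vrn2-5 prt6-1 replicate 1), 1 to 23 for vrn2-5 against Col-0 (23 without Col-0 replicate 3), 0 to 5 for the interaction (5 without vrn2-5 replicate 1) and 2 to 11464 in rosettes. RAP2.12 then ran from 0.032 to 0.457 for prt6-1 against Col-0, 0.015 to 0.478 for vrn2-5 prt6-1 against vrn2-5 and 0.101 to 0.333 for the mean. RAP2.2 ran from -0.216 to 0.24 for prt6-1 against Col-0, -0.022 to 0.321 for vrn2-5 prt6-1 against vrn2-5, -0.058 to 0.17 for the mean and -0.243 to 0.02 in rosettes. For vrn2-5 against Col-0 the ranges were -0.265 to 0.232 for RAP2.2, -0.253 to 0.21 for RAP2.3, -0.332 to 0.229 for RAP2.12, -0.272 to 0.177 for HRE1 and -0.039 to 0.331 for HRE2. For vrn2-5 prt6-1 against prt6-1 they were -0.041 to 0.272 for RAP2.2, -0.022 to 0.385 for RAP2.3, -0.19 to 0.076 for RAP2.12 and -0.377 to 0.07 for HRE1. For the interaction they were -0.139 to 0.357, -0.044 to 0.419, -0.27 to 0.291, -0.352 to 0.107 and -0.178 to 0.192 for RAP2.2, RAP2.3, RAP2.12, HRE1 and HRE2. The cause of these moves was not tested. Depth limits HRE2 and HRE1 most, with 0 to 5 and 9 to 17 reads in the shallow libraries.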

Other observations

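BIG, a very large protein known to act beside PRT6 in the N-degron pathway, had 18.7, 3.54 and 8.95 normalized reads in Col-0, from 5, 1 and 31 reads, and 222, 310 and 362 in vrn2-5. It had 0, 0 and 4.26 in prt6-1, and 0, 413 and 0 in vrn2-5 prt6-1. The 3 libraries of vrn2-5 were thus high, and so was 1 of 3 of the double mutant. The log2 difference for vrn2-5 against Col-0 was 4.39 (SE 1.35, adjusted p 1.0 in limma). BIG was named after its values were seen.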
